A study of Mus musculus with 3 samples.

Results

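Of 8379 spleen cells of the first processing day, 126 carried at least 1 UMI (a transcript molecule counted once) of Gzmm together with at least 1 UMI of Samd3, Cxcr5 or Nsg2, and no UMI of Havcr2, Foxp3, Sostdc1, Il21, Cd8a or Cd8b1. These 126 cells are called the Gzmm+ cells here, and they came out of 30891 cell entries deposited for both organs and both days. The members were selected on the measured counts of these 10 genes, so the levels of those genes describe the choice and are given with no test. All 126 cells passed the filter on cell quality, as did 8358 spleen cells and 4979 kidney cells of that day.

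CD4+ T cells were sorted from spleens and kidneys of lupus-prone MRL/lpr mice and sequenced as single cells from the 5′ transcript end, with an oligonucleotide tag for each animal and organ. All mice carried loxP-flanked Ezh2 (Ezh2fl/fl) on the MRL/lpr background, in which the lpr mutation disrupts the death receptor gene Fas, and all received oral tamoxifen at 300 mg/kg. Dosing began at 10 weeks of age in the preventative arm or at 14 weeks in the therapeutic arm and ended at 24 weeks. The arm of each mouse is not given. The KO mice also carried Cre fused to a modified estrogen receptor under the Cd4 promoter (iCD4-Cre Ezh2fl/fl), and the WT mice were Ezh2fl/fl animals without Cre. The Cd4 promoter drives Cre in Cd4-expressing cells, so other spleen and kidney cells keep Ezh2. The deposited tag key places 2 KO mice (KO1, KO2) and 3 WT mice (WT1, WT2, WT3) on the first day. Ezh2 itself was at 52.3 and 56.1 CPM (UMIs of a gene scaled to a common total of summed UMIs) in the spleen cells of KO1 and KO2, against 77.9 CPM (WT1), 179 CPM (WT2) and 155 CPM (WT3). The value for this gene includes transcript outside the floxed exons, and the deleted part was not looked at apart.

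Gzmm encodes granzyme M, a serine protease of cytotoxic granules that is known mostly from natural killer cells and from innate-like T cells. Samd3 encodes a SAM-domain protein found in cytotoxic lymphocytes, Cxcr5 the chemokine receptor that leads lymphocytes into B cell follicles, and Nsg2 a vesicle-trafficking protein best known from neurons. The genes that had to be absent mark other CD4+ T cell states: Havcr2 encodes the inhibitory receptor TIM-3, Foxp3 the factor of regulatory T cells, Sostdc1 and Il21 belong to follicular helper cells, and Cd8a and Cd8b1 encode the CD8 coreceptor. Ezh2 is the catalytic subunit of Polycomb repressive complex 2, which methylates histone H3 at lysine 27 and keeps genes of other cell fates silent.

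The origin of every cell rests on its tag. The tags of the spleen samples are shown because the uneven spread of the Gzmm+ cells over mice depends on them. Each runs 5′ to 3′, with no capitals.
KO1: tatgctgccacggta
KO2: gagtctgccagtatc
WT1: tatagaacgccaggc
WT2: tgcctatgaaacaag
WT3: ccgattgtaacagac
In each of the 5 spleen blocks at least 99.5% of cells were led by the block's tag, and in WT3 the median was 1862 UMIs for its tag against 227 for the next. No cell barcode was shared between spleen blocks, nor between spleen and kidney. Doublets could be seen only from the tags, since no caller was used.

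Gzmm lies on chromosome 10 (79689020 to 79695261) and Samd3 on the same chromosome (26229616 to 26272916) in RefSeq genes of GRCm38.p6. Of the Gzmm, Samd3 and Nsg2 promoter windows looked at, those that held a match to the motif named next are shown. The gate required Gzmm and accepted Samd3 as a partner, which 70 of the 126 cells carried, so their joint presence is no finding. Capitals mark matches to the T-box core TCACAC, or GTGTGA on the other strand, which is read by factors such as Eomes and Tbx21. Both windows are on the plus strand, and the one for Gzmm belongs to the second of 2 RefSeq starts.
Gzmm promoter, chr10:79693576-79693875: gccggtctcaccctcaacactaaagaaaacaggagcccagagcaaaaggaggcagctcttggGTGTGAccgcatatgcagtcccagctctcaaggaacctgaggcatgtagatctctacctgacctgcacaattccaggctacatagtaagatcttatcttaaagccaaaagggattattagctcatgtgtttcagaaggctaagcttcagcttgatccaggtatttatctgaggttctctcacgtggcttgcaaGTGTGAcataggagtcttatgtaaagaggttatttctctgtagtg
Samd3 promoter, chr10:26229457-26229756: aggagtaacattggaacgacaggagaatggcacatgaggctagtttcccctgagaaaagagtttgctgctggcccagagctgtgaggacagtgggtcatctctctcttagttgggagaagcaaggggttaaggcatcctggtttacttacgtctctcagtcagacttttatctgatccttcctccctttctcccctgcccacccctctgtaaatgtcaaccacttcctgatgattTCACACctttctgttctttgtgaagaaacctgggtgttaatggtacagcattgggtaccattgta
The Gzmm window held 2 matches and the Samd3 window 1, while the window at the other Gzmm start and both Nsg2 windows held 0. Of 32851 mouse promoter windows of 300 bases, 14.5% held the motif on either strand. The TCF/LEF core CTTTGA, or TCAAAG on the other strand, was in none of these windows and in 16% of all. A match describes the letters only.

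The Gzmm+ cells were rare in every mouse and came mostly from a single animal. WT3 gave 102 of them (4.75% of 2146 cells, 95% Wilson interval 3.93 to 5.74%), and WT2 gave 14 (1.52% of 922, interval 0.907 to 2.53%). WT1 gave 6 (0.251% of 2386), KO1 gave 3 (0.227% of 1324) and KO2 gave 1 (0.0633% of 1580). WT3 and WT2 were high, while WT1 lay close to the KO mice. The intervals cover counting error only.

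The KO mice averaged 0.145% ± 0.115 (SD, n = 2). The WT mice averaged 2.17% ± 2.32 (SD, n = 3). The KO minus WT difference of -2.03 percentage points did not pass a two-sided exact permutation test over mice (p = 0.2), and the smallest p this design allows is 0.1. Without WT3 the difference was -0.740 points. The 4 KO cells are too few for any comparison of expression between genotypes within the Gzmm+ cells, so none was made.

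**Figure D1:**
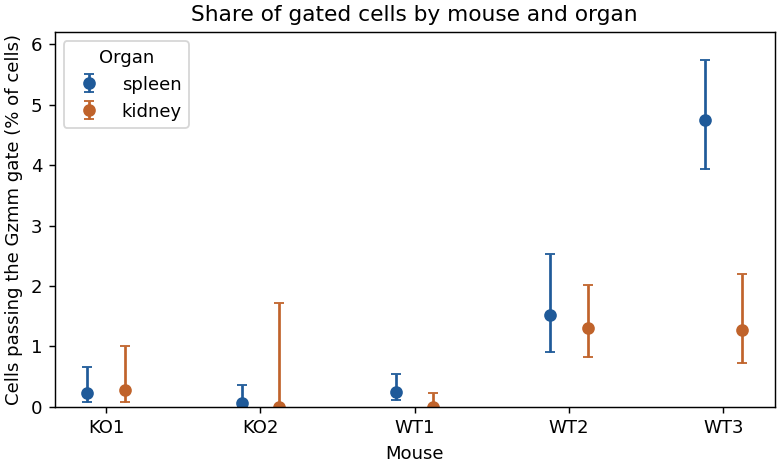
Share of cells passing the Gzmm gate (y axis, percent of cells) for each mouse (x axis) in spleen and kidney, with 95% Wilson intervals as bars. WT3 spleen stands at 4.75%, WT2 spleen at 1.52%, and the other 3 spleens at or below 0.251%.

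The gate needs several transcripts to be caught in a cell, and the Gzmm+ cells held more RNA molecules than their neighbours. Their median was 4051 UMIs against 3177.5 for the other cells of WT3, and 4737 against 3417 in WT2. When each cell was thinned to 2000 UMIs and shallower cells were left out, between 63 and 288 per spleen, the shares fell to 2.86% in WT3 and 0.233% in WT2. They were 0.0477%, 0.0831% and 0.0690% in WT1, KO1 and KO2. The thinned gate held 55 cells in WT3, 2 in WT2 and 1 in each other mouse, and the KO minus WT difference was -0.969 points (exact permutation p = 0.7).

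Gzmm was detected in 174 spleen cells in all, of which 126 passed the gate, 28 held no transcript of Samd3, Cxcr5 or Nsg2, and 20 held an excluded gene. The gene was seen in 5.73% of WT3 cells, 2.49% of WT2 cells, 0.419% of WT1 cells, 0.604% of KO1 cells and 0.633% of KO2 cells. As a check on free RNA, 0 of 11 spleen cells with B cell transcripts and no CD3 transcript held a Gzmm UMI, which allows a share of up to 27.3% and so sets no useful bound. At the edge of the gate, 71 Gzmm+ cells had 1 Gzmm UMI and 55 had 2 or more, with a highest count of 8. A further 2444 spleen cells met every condition but Gzmm.

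Among the partner genes, Nsg2 was present in 103 of the 126 cells, Samd3 in 70 and Cxcr5 in 63. Of these cells 27 carried Nsg2 alone, 9 Samd3 alone and 8 Cxcr5 alone, while 54 carried 2 of the genes and 28 all 3. For 24 cells, membership rested on a single partner UMI. The name with Samd3 or Cxcr5 therefore leaves out the partner gene seen most often.

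The levels of the gate genes, in CPM, show what the choice selected. Gzmm was at 288 CPM in the Gzmm+ cells of WT2 and 433 CPM in those of WT3, against 2.74 and 5.67 CPM in the other cells. Nsg2 was at 368 and 468 CPM against 51.8 and 130 CPM. Samd3 was at 219 and 234 CPM against 61.0 and 85.7 CPM, and Cxcr5 at 230 and 182 CPM against 77.6 and 99.8 CPM. All 4 were higher in the Gzmm+ cells of both mice, as the gate requires.

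Pard3b and Ms4a4c, markers that the gate did not use, were also higher in both mice. Pard3b, which encodes a cell polarity protein, was at 115 CPM in WT2 and 80.1 CPM in WT3, against 9.46 and 24.9 CPM in the other cells. It was found in 5 of 14 and 25 of 102 Gzmm+ cells. Ms4a4c, which encodes a four-span membrane protein, was at 115 and 84.4 CPM against 45.5 and 48.2 CPM. In the 10 Gzmm+ cells of the other 3 mice, Pard3b was in 0 cells and Ms4a4c in 1. In 11 spleen cells with B cell transcripts and no CD3 transcript, each marker was found in 3 (27.3%), against 23.8% and 27.0% of the Gzmm+ cells, so these shares do not set the Gzmm+ cells apart from that class. Both genes were in the fit described further on and count among its higher calls, but they were proposed from the same cells and support nothing.

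The spleen cells were also clustered without the gate genes, both markers and the receptor segments, as a description made after the data had been seen. Of 12 clusters, 1 held 114 of the 126 Gzmm+ cells, 96 of them from WT3 and 13 from WT2. It counted 1020 cells and made up 33.6% of WT3, 17.7% of WT2, and 1.96%, 2.03% and 3.23% of KO1, KO2 and WT1. Gzmm was detected in 13.0% of its cells, and in at most 3.93% of any other cluster. Its cells outside the gate had Samd3 at 192 CPM in WT2 and 188 CPM in WT3, against 35.4 and 38.2 CPM outside the cluster. Ms4a4c was at 113 and 107 CPM in them, against 115 and 84.4 CPM in the Gzmm+ cells. This marker thus does not set the Gzmm+ cells apart from their cluster. Pard3b was at 30.5 and 49.5 CPM in these cells outside the gate, against 115 and 80.1 CPM in the Gzmm+ cells. Other traits were shared with these cells too: Tcf7 was at 560 and 501 CPM in them against 66.9 and 108 CPM outside the cluster, and Ccr7 at 124 and 96.6 CPM against 37.5 and 45.9 CPM. Il10 was at 6.10 and 4.99 CPM against 47.3 and 71.0 CPM. The levels of Tcf7, Ccr7 and Il10 were used by the clustering and are a description. In WT3, 20.6% of the 15 nearest neighbours of a Gzmm+ cell were Gzmm+ cells, against 4.31% for other cells of that mouse. The cluster itself held 96 Gzmm+ cells among its 722 cells of WT3, so part of this contrast goes with the cluster. The cluster that leads with cell cycle genes held 6 of the remaining Gzmm+ cells.

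**Figure D2:**
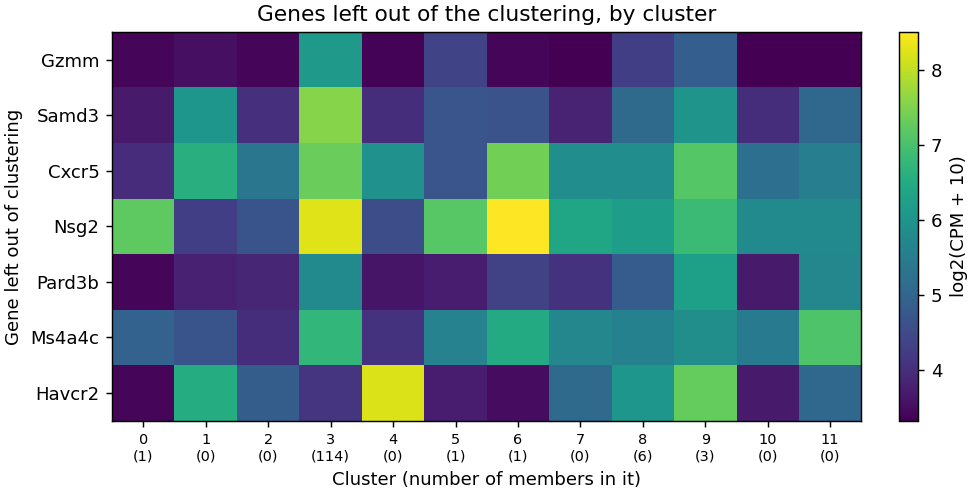
Levels, as log2(CPM + 10), of 6 genes of the gate or its markers and of the excluded gene Havcr2 (rows) in 12 spleen clusters (columns, with the number of Gzmm+ cells in each in brackets). All 7 genes were left out of the clustering. Cluster 3, with 114 Gzmm+ cells, has Gzmm at 59.1 CPM and Samd3 at 181 CPM, and Havcr2 is highest in cluster 4.

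Against the other spleen cells, the Gzmm+ cells of WT2 and WT3 had higher transcripts of ribosomal proteins and of some lymphoid homing and memory-type genes, and far lower transcripts of inflammatory chemokines, inhibitory receptors and several effector genes. Counts were summed per mouse and compared with edgeR's quasi-likelihood test, with the mouse as a block and the gate genes left out. Of 9467 genes fitted, 265 (2.8%) passed an adjusted p of 0.05, of which 139 were higher (1.47%) and 126 lower (1.33%). With no replicate block 41 of these genes passed, and DESeq2 called 48 of them. Only WT2 and WT3 had the 10 Gzmm+ cells set as a minimum, so every p-value here rests on 2 mice, and the sums of 14 and 102 cells weigh very differently. Each standard error (SE) given with a log2 change was derived from that change and the test statistic of its fit. Neither the SE nor the p-value is a direct measure of the spread between the 2 mice. Of the 139 higher calls, 38 were ribosomal protein genes (of 90 tested, median log2 0.32, 0 lower) and 5 were mitochondrial genes (of 13 tested, median 0.42, 0 lower). Rplp0, for example, was at 8531 and 7112 CPM against 5288 and 5140 CPM (log2 0.59). These families, counted after the data had been seen, moved with the group together with the higher UMI totals, and their part in the other differences was not tested. In bulk sums such as these, fewer cells with a transcript and less of it per cell cannot be told apart.

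Genes of naive and recirculating T cells were higher in 5 and lower in 1 of 12 tested, with a median log2 change of 0.65 beside -0.04 for all genes. Tcf7, which encodes the transcription factor TCF-1 of naive and stem-like T cells, was at 656 CPM in WT2 and 595 CPM in WT3, against 147 and 233 CPM in the other cells. The log2 change was 1.67 ± 0.17 (SE, adjusted p = 1.34e-19), and the naming rule required the same direction in both mice. The rise did not pass when all 5 mice were fitted, as given further on. Tcf7 was detected in 12 of 14 and 89 of 102 Gzmm+ cells, and its level in the other cells of their cluster, given above, was close to theirs.

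Ccr7, the receptor for lymph node entry, was at 253 and 158 CPM against 51.5 and 61.9 CPM (log2 1.70 ± 0.26, adjusted p = 4.30e-08). Klf2, which encodes a factor that drives the egress and homing receptors, was at 2395 and 3007 CPM against 957 and 1675 CPM (log2 1.07 ± 0.11). S1pr1, the egress receptor that Klf2 controls, rose by 1.03 ± 0.31 (adjusted p = 0.038), and Actn1 rose by 1.44 ± 0.45 (adjusted p = 0.048) although it was at 0 in the WT2 cells. Not all naive genes passed. Lef1, at 92.1 and 173 CPM against 99.5 and 100 CPM, did not pass. Satb1, a chromatin organiser of naive T cells, fell by 2.11 ± 0.52 on the log2 scale.

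Of 10 memory and survival genes, 3 were higher and 0 lower, with a median of 0.32. Slamf6, a surface receptor of stem-like T cells, was at 334 and 422 CPM against 119 and 192 CPM (log2 1.27 ± 0.19). Id3, an inhibitor of E proteins, was at 92.1 and 167 CPM against 31.1 and 56.9 CPM (log2 1.60 ± 0.28). Cxcr3, the receptor for interferon-induced chemokines, was at 518 and 470 CPM against 226 and 248 CPM (log2 1.05 ± 0.17). All 3 were higher in both mice.

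Several of the rises named by rule were in genes with few counts. Pdlim1, a cytoskeletal adaptor, was at 92.1 and 47.6 CPM against 11.7 and 11.6 CPM. Ccr4, a chemokine receptor of memory and type 2 helper T cells, was at 57.6 and 52.0 CPM against 4.23 and 14.8 CPM. For these 2 genes the log2 changes were 2.37 ± 0.47 and 2.20 ± 0.48. In the other cells of the cluster that held most Gzmm+ cells, Pdlim1 was at 29.0 and 17.9 CPM and Ccr4 at 12.2 and 21.6 CPM.

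Tnfrsf25, which encodes the death-domain receptor DR3, was at 115 and 54.1 CPM against 15.9 and 21.5 CPM. Arl5c, a small GTPase gene, was at 207 and 184 CPM against 59.2 and 56.8 CPM and was seen in 8 of 14 and 46 of 102 Gzmm+ cells. Cacna1a, a calcium channel subunit, was at 57.6 and 80.1 CPM against 12.9 and 27.7 CPM. The further named rises, with log2 changes between 1.61 and 2.91, were Clybl, Slit3, Tex15 and Zbtb32, the last a transcriptional repressor of lymphocytes. The naming rule required each of these to be higher in both mice, so that direction adds nothing. In the WT2 cells the last 4 rested on few counts, with 1 UMI of Clybl, 2 of Slit3, 4 of Tex15 and 3 of Zbtb32.

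Effector chemokines showed the opposite. Ccl5 (RANTES) was at 7333 CPM in the WT2 cells and 2353 CPM in the WT3 cells, against 28730 and 19686 CPM in the others (log2 -2.52 ± 0.10, adjusted p = 8.37e-142). Ccl4 was at 57.6 and 82.3 CPM against 2252 and 1911 CPM (log2 -4.63 ± 0.18). Ccl3 was at 23.0 and 39.0 CPM against 696 and 650 CPM (log2 -4.14 ± 0.25). All 3 chemokines were thus lower in both mice, and Ccl5 stayed among the abundant transcripts. The fall of Ccl5 differed between the mice and was larger in WT3, which its SE does not show.

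In the list of cytokines and chemokines, 1 gene was higher and 5 lower of 10 tested (median -0.83). Ifng, the signature cytokine of type 1 helper cells, was at 219 and 405 CPM against 725 and 840 CPM (log2 -1.17 ± 0.16). Il10, a regulatory cytokine, had 0 UMIs in the 116 Gzmm+ cells of both mice against 40.6 and 50.1 CPM in the others, which is at least 8.56-fold lower with 3 counts over the cells of both mice as the floor, 5.47 CPM. Xcl1, the lymphotactin gene, was the member that rose (449 and 366 CPM against 204 and 280 CPM, log2 0.67 ± 0.18). Tnf, at 23.0 and 171 CPM against 115 and 163 CPM, did not pass.

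Of 9 cytotoxic effector genes, 0 were higher and 4 lower (median -0.53). Gzmb, which encodes granzyme B, was at 23.0 and 6.49 CPM against 326 and 114 CPM (log2 -3.98 ± 0.44). Fasl and Nkg7 fell by 1.36 ± 0.25 and 0.53 ± 0.11 on the log2 scale, and Srgn, the granule proteoglycan gene, fell by 0.75 ± 0.13. Gzmk, which encodes granzyme K, was at 1220 and 1184 CPM against 1123 and 1011 CPM (log2 0.21 ± 0.12, adjusted p = 0.669), and Prf1, which encodes perforin, was at 57.6 and 60.6 CPM against 126 and 105 CPM (adjusted p = 0.190). Gzma and Gzmc were at 0 in the Gzmm+ cells of both mice.

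Of 8 effector transcription factors, 0 were higher and 3 lower. Prdm1, which encodes Blimp-1, was at 23.0 and 4.33 CPM against 107 and 97.5 CPM (log2 -3.68 ± 0.54). Id2 was at 265 and 284 CPM against 832 and 715 CPM (log2 -1.39 ± 0.16), and Bhlhe40 fell by 0.74 ± 0.16 on the log2 scale. Eomes, a T-box factor of cytotoxic cells, was at 219 and 355 CPM against 370 and 372 CPM and did not pass (log2 -0.21 ± 0.18), and neither did Tbx21 or Runx3. Thus Id3 and Id2 differed in opposite directions.

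Of 9 inhibitory receptors and Tox, 0 were higher and 5 lower, with a median of -0.94. Lag3 was at 11.5 and 26.0 CPM against 255 and 326 CPM (log2 -3.69 ± 0.33). Entpd1, which encodes the ectonucleotidase CD39, was at 0 and 4.33 CPM against 109 and 93.7 CPM (log2 -4.67 ± 0.63). Tigit, Tox and Ctla4 fell by 1.34 ± 0.22, 0.75 ± 0.17 and 0.72 ± 0.16 on the log2 scale. Pdcd1, which encodes PD-1, was at 11.5 and 54.1 CPM against 68.7 and 94.6 CPM and did not pass (adjusted p = 0.171). Havcr2 itself was excluded by the gate, so cells rich in these receptors had already been kept out.

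Follicular helper genes were 0 higher and 2 lower of 9 tested (median -0.19), although Cxcr5 is one of the partner genes. Bcl6, the master regulator of follicular helper cells, was at 23.0 and 52.0 CPM against 24.1 and 32.3 CPM (adjusted p = 0.731). Maf fell by 2.22 ± 0.30 and Izumo1r by 1.91 ± 0.49 on the log2 scale. Of 7 regulatory T cell genes, 0 were higher and 3 lower, among them Ikzf2, which encodes Helios and was at 11.5 and 2.16 CPM against 32.3 and 89.0 CPM. Foxp3, Sostdc1 and Il21 were conditions of the gate, and cells carrying them had been removed.

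Of 10 genes for chemokine receptors and adhesion, 0 were higher and 2 lower. Cxcr6, a receptor of tissue-resident T cells, had 0 UMIs in the Gzmm+ cells of WT2 and WT3 against 19.4 and 49.6 CPM, at least 7.16-fold lower. Ccr2, the receptor for monocyte chemokines, was at 265 and 104 CPM against 314 and 275 CPM (log2 -0.97 ± 0.22). Further genes at 0 by the naming rule were Gcg, Serpina3g, Csf1, H2-Aa, Phactr1 and Cd81, whose lower bounds lay between 4.07-fold and 6.23-fold. In the other cells of their cluster Cxcr6 was at 4.58 and 4.99 CPM and Gcg at 1.53 and 2.08 CPM. Csf1 was there at 4.58 and 1.66 CPM, H2-Aa at 0 and 1.66 CPM and Phactr1 at 1.53 and 0 CPM. These levels lie below the 5.47 CPM floor, so the zeros of these genes do not set the Gzmm+ cells apart from their cluster. Serpina3g was there at 18.3 and 9.57 CPM and Cd81 at 1.53 and 8.74 CPM.

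Natural killer receptors were sparse in both classes. Of 11 natural killer genes, 7 were at 0 in the Gzmm+ cells of WT2 and WT3, among them Ncr1, Klrb1c and Klrd1, and of 5 tested 0 passed in either direction. The summed level of the list was 138 and 167 CPM against 173 and 166 CPM, and the count of calls does not stand apart from the 2.8% of all genes. The invariant and gamma-delta markers Zbtb16, Sox13 and Trdc were at 0, but the other cells had only 3.73 and 1.45 CPM of the list. The 4 erythroid genes were at 0, against 3.73 and 1.85 CPM. Both lists lie below the 5.47 CPM that 3 counts give in the Gzmm+ cells, so these zeros set no difference.

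T cell identity was present. Cd4 was at 334 and 379 CPM against 369 and 466 CPM (adjusted p = 0.841), and Cd3d at 829 and 896 CPM against 894 and 907 CPM. Of 13 identity genes, 1 was higher (Thy1) and 3 lower (Cd3e, Cd3g and Cd2), with a median of -0.09. Of 10 B cell transcripts, 6 were at 0, including Ms4a1 and Cd79b, and the list summed to 679 and 379 CPM against 523 and 524 CPM. Igkc alone gave 460 and 327 CPM, and of 5 tested H2-Aa and H2-Ab1 were lower. Of 8 myeloid transcripts, 6 were at 0, including Lyz2 and Csf1r, and the list summed to 127 and 67.1 CPM against 162 and 155 CPM.

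In the remaining lists, Ezh2 was the member of 10 PRC2 subunits that rose, at 334 and 232 CPM against 176 and 150 CPM (log2 0.76 ± 0.21, adjusted p = 0.0123), with a list median of 0.02. Of 12 cell cycle genes 0 passed, and Mki67 was at 184 and 173 CPM against 185 and 83.2 CPM (adjusted p = 0.0553). Of 10 interferon response genes, 1 was higher (Ifi27l2a, log2 0.55 ± 0.14) and 1 lower. Of 10 stress and immediate early genes, 0 were higher and 4 lower, with Hspa1a and Hspa1b at log2 changes of -0.82 ± 0.13 and -0.87 ± 0.13. Of 5 genes of the Ms4a and Ly6 families, Ly6e was higher (log2 0.57 ± 0.12). The mitochondrial share was 1.37% in the WT3 cells and 1.07% in the others, and its part in these differences was not tested.

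**Figure D3:**
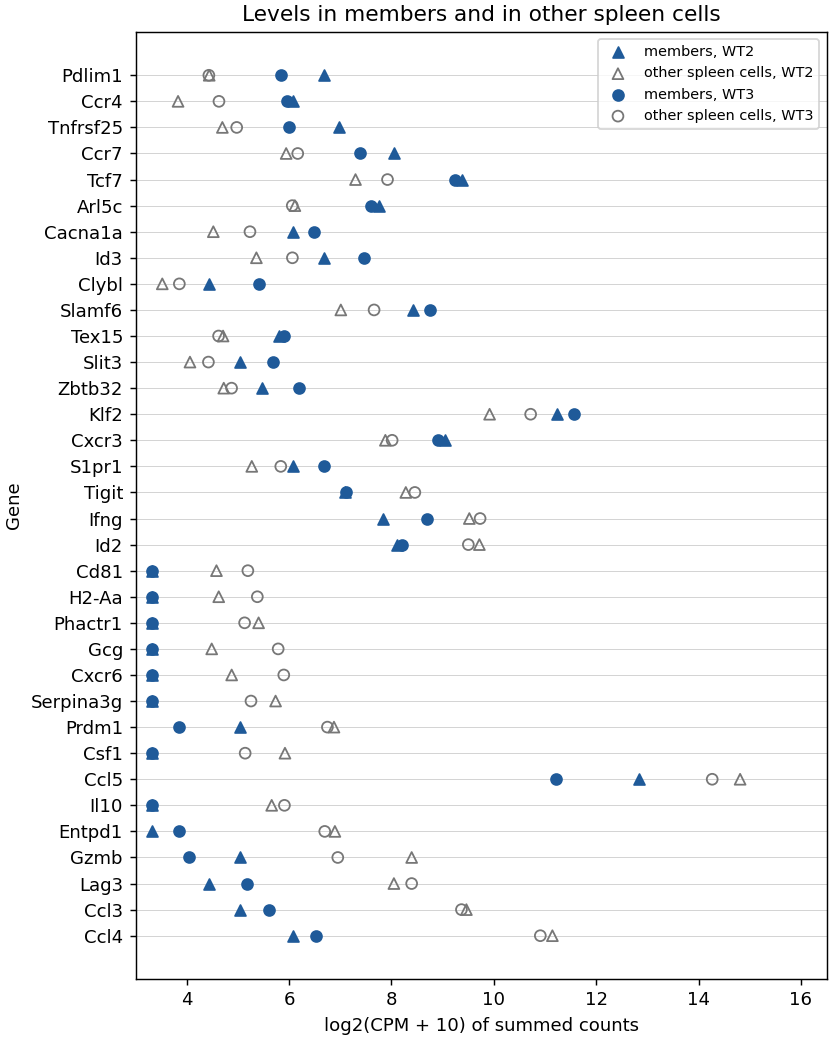
Levels, as log2(CPM + 10) of summed counts (x axis), of named genes (y axis) in members, the Gzmm+ cells (filled), and other spleen cells (open) of WT2 (triangles) and WT3 (circles). Ccl4, at 57.6 and 82.3 CPM against 2252 and 1911 CPM, is at the bottom, and genes at 0 UMIs sit at the left edge.

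**Figure D4:**
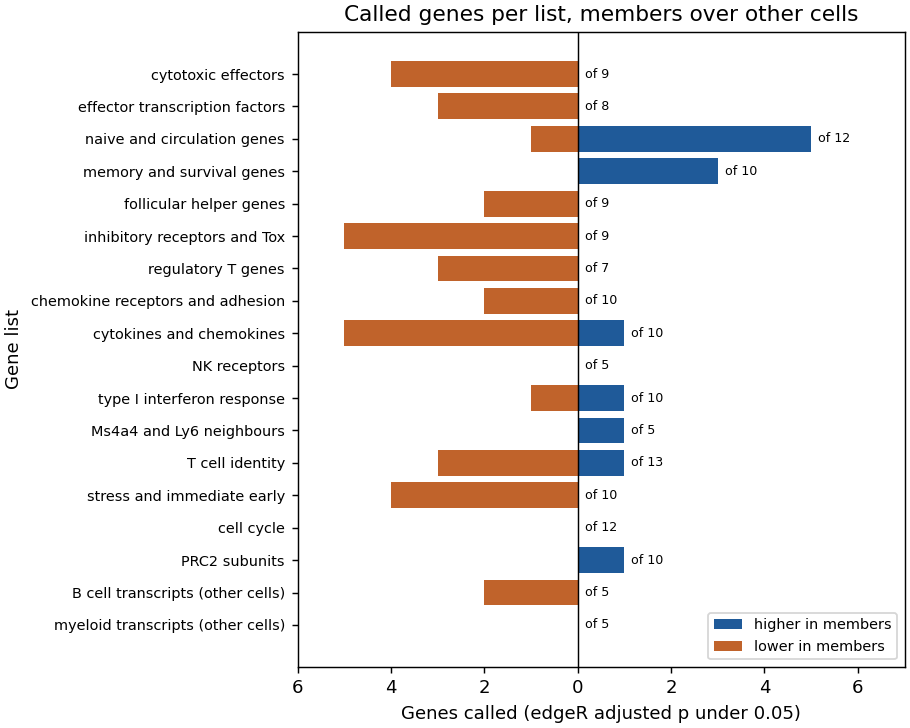
Number of genes called higher (right) and lower (left) in members, the Gzmm+ cells, than in other spleen cells for each gene list (y axis), by edgeR at an adjusted p of 0.05, with the number tested beside each bar. The naive and circulation list has 5 higher and 1 lower of 12, and the inhibitory receptors have 0 higher and 5 lower of 9.

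Because the gate also picks for its partner genes and against the excluded ones, the Gzmm+ cells were set against the cells that lacked only Gzmm. This comparison was added after the data had been seen. It called 68 of 7949 genes (0.855%), 30 higher and 38 lower, and 63 of them were among the 265. The chemokine genes differed here too, with log2 changes of -3.53 ± 0.20 for Ccl4, -2.93 ± 0.27 for Ccl3 and -1.44 ± 0.12 for Ccl5. Lag3 fell by 2.35 ± 0.37, Gzmb by 2.63 ± 0.51 and Prdm1 by 2.52 ± 0.59 on the log2 scale.

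Tcf7 remained higher at a log2 change of 0.79 (adjusted p = 0.00332), as did Ccr7 at 1.17, Klf2 at 0.51, Cxcr3 at 0.89, Ccr4 at 1.80 and Pdlim1 at 1.84. Slamf6, at 0.64, did not pass (adjusted p = 0.0589), and neither did Id3 at 0.71 (adjusted p = 0.334) or Ezh2 at 0.66 (adjusted p = 0.124). Of 12 cell cycle genes, 2 were higher in this comparison, where 0 were called against all other cells, and Mki67 was among them (log2 1.82, adjusted p = 0.00145).

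When all 5 mice were fitted, with the 10 Gzmm+ cells of KO1, KO2 and WT1 as 3 further sums, 132 of 9208 genes passed (1.43%), 26 higher and 106 lower, and 74 were among the 265. Without WT3 this fell to 42 genes and without WT2 to 92. Gzmb, Lag3, Entpd1, Prdm1 and Ccl3 stayed lower with all 5 mice, at log2 changes between -4.84 and -3.30, and so did Ccl4 at -2.43 and Ccl5 at -1.80. Without WT3, Ccl4 (-1.06, adjusted p = 0.693), Ccl5 (-1.44, adjusted p = 0.409) and Prdm1 (-3.04, adjusted p = 0.108) did not pass, while Gzmb, Lag3, Entpd1 and Ccl3 did. With all 5 mice, the rises of Tcf7 (0.63, adjusted p = 0.724), Ccr7 (0.77, adjusted p = 0.492), Klf2 (0.63, adjusted p = 0.758) and Slamf6 (0.55, adjusted p = 0.780) did not pass. In those 10 cells Tcf7 was at 483 CPM against 440 CPM in the other cells of KO1, KO2 and WT1, and Ccr7 at 294 CPM against 370 CPM. The higher Tcf7 and Ccr7 were therefore measured in WT2 and WT3, whose other cells had less of both transcripts. The sum of these 10 cells is uneven, since 1 WT1 cell held 45651 UMIs. Mki67 was at 935 CPM in the 10 cells against 70.9 CPM, and 4 cell cycle genes passed as higher with all 5 mice.

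The nearest comparison outside the gate, with other Gzmm-positive cells, could not be fitted, since only WT3 had 10 such cells. Against cells with both Gzmk and Eomes, a large effector class of these mice, 353 of 9018 genes passed (3.91%), 193 higher (2.14%) and 160 lower (1.77%), and 59 of them passed with no replicate block. Ccr7 was at 253 and 158 CPM in the Gzmm+ cells against 26.0 and 39.7 CPM, and Tcf7 at 656 and 595 CPM against 128 and 210 CPM. Their log2 changes were 2.45 ± 0.28 and 1.84 ± 0.16.

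Ccl4 was at 2261 and 2120 CPM in the Gzmk and Eomes cells (log2 -4.73 ± 0.17 in Gzmm+ cells), and Entpd1 at 114 and 106 CPM. Of 7 inhibitory receptors and Tox tested, 0 were higher and 6 lower, and of 10 naive and circulation genes 6 were higher and 1 lower. The Gzmk and Eomes cells were not filtered on the excluded genes and had Havcr2 at 116 and 118 CPM in WT2 and WT3. Cells rich in inhibitory receptors had thus been kept out of the Gzmm+ side only, so the direction of these falls was partly set by the gate. Cpne3, Klhl6 and Tespa1, the last an adaptor of T cell receptor signalling, were among the named rises, with log2 changes between 1.75 and 1.91. Il10, Gcg and Cxcr6 were again at 0 in the Gzmm+ cells, at least 8.36-fold, 8.93-fold and 6.21-fold lower.

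Against Havcr2-positive cells, whose gene the gate excludes, 644 of 7477 genes passed (8.61%), 352 higher (4.71%) and 292 lower (3.91%), and 296 of them passed with no replicate block. Ccr7 was at 2.58 and 5.79 CPM in the Havcr2-positive cells (log2 5.43 ± 0.40 in Gzmm+ cells), Tcf7 at 13.8 and 30.9 CPM (log2 4.77 ± 0.24) and Id3 at 1.72 and 8.36 CPM (log2 4.61 ± 0.42). All 3 were higher in the Gzmm+ cells of both mice, as the naming rule requires. All 7 inhibitory receptors and Tox that could be tested were lower, with a median of -1.75, and Il10, Cxcr6 and Csf1 were at least 13.9-fold, 10.5-fold and 10.6-fold lower. One class had to hold the inhibitory receptor gene Havcr2 and the other had to lack it. The direction of the falls in inhibitory receptors was thus partly set by how the classes were chosen. Pecam1, an adhesion receptor, was at 104 and 54.1 CPM against 3.44 and 6.43 CPM. These comparisons share the Gzmm+ cells with the first and are not independent of it.

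Within the Gzmm+ cells of WT3, summed levels by partner gene are given as a description, since the gate itself used these genes and all cells come from 1 mouse. Ccl5 was at 1447 CPM in the 48 cells with Cxcr5 and at 3356 CPM in the 54 without it, which had to carry Samd3 or Nsg2. Tcf7 was at 616 CPM in the 59 cells with Samd3 and at 561 CPM in the 43 without it. Ccr7 was at 215 CPM in the cells with 2 or more Gzmm UMIs and at 109 CPM in those with 1.

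T cell receptor segments were read from the gene expression counts. In WT3, 21 of the 23 Trbv segments seen in its other cells were found in the Gzmm+ cells. Trbv5 and Trbv13-2 were each in 18 of 102 (17.6%, Wilson interval 11.5 to 26.2%), against 4.16% and 12.8% of other cells. In WT2, 13 segments were found among 14 cells, and Trbv13-2 was in 6 of them (42.9%, interval 21.4 to 67.4%) against 16.3% of others. Trav14d-3-dv8 was in 21.6% of the WT3 cells against 8.37%, but near-identical Trav copies share reads. Shares of segments also move with depth, which was higher in the Gzmm+ cells. The segments were part of the edgeR fit against other spleen cells, where 4 Trbv were higher and 5 lower of 18 tested, and 4 Trav higher and 2 lower of 36. Trbv15 was at 622 CPM in the WT2 cells and 10.8 CPM in the WT3 cells, against 12.7 and 12.9 CPM (log2 3.41, adjusted p = 3.92e-15). The rise was thus in WT2 alone. Trbv15 was not among the 5 leading segments there, and the segment of rank 5 was in 2 of 14 cells. At most 2 cells therefore gave this rise, and its p-value does not speak for the Gzmm+ cells as a group. Trbv31 was at 0 and 10.8 CPM against 150 and 125 CPM (log2 -3.79, adjusted p = 2.36e-12). In kidney cells of the same mice that passed the gate, its log2 change went the other way, at 1.90. The fall was thus not shared by gated cells of both organs. Trbv5 passed narrowly (log2 1.62, adjusted p = 0.048).

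The same gate was applied to kidney cells, which played no part in choosing it. It held 19 of 1467 cells in WT2 (1.30%) and 12 of 947 in WT3 (1.27%), 2 of 717 in KO1 (0.279%), and 0 of 1629 in WT1 and 0 of 219 in KO2. The last 2 counts allow shares of up to 0.184% and 1.37%. As in spleen, WT2 and WT3 held most of the cells. The share was higher in spleen than kidney in 4 of 5 mice, by 0.794 percentage points on average. The gate was chosen on spleen cells, which favours that direction, so nothing is read from the exact two-sided sign-flip permutation test that had been planned (p = 0.125). Thinned to 2000 UMIs, the mean difference was 0.397 points.

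Kidney cells that passed the gate differed from other kidney cells in 68 of 8836 genes (0.77%), 19 higher (0.215%) and 49 lower (0.555%), again in WT2 and WT3. With no replicate block 11 of these passed, and DESeq2 called 14. The median log2 change of all genes was -0.18. Tcf7 was at 443 and 490 CPM against 129 and 175 CPM (log2 1.54 ± 0.29, adjusted p = 5.93e-05), Slamf6 at 163 and 302 CPM against 52.9 and 105 CPM (log2 1.46 ± 0.38), and Klf2 at 1501 and 2036 CPM against 819 and 871 CPM (log2 0.93 ± 0.19). All 3 were also higher in the spleen cells. Ccr7 (log2 1.18, adjusted p = 0.211) and Id3 (log2 1.38, adjusted p = 0.819) did not pass.

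Other kidney genes named as higher were Emp1, a membrane protein gene, at 289 and 490 CPM against 85.2 and 121 CPM, Sidt1 at 371 and 396 CPM against 116 and 118 CPM, and Crtam, a receptor of cytotoxic T cells, at 109 and 226 CPM against 44.2 and 47.1 CPM. Adk, which encodes adenosine kinase, was at 36.2 and 283 CPM against 16.4 and 29.8 CPM. Ccl3, Cxcr6, Entpd1 and Lag3 had 0 UMIs in the gated kidney cells of both mice and were at least 8.70-fold, 7.77-fold, 5.43-fold and 5.13-fold lower. The floor there was 18.3 CPM. Ccl4 and Ccl5 had log2 changes of -4.75 ± 0.44 and -1.68 ± 0.14.

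Gpx3, Miox and Fxyd2, genes of kidney tubule cells, were at 0 in the gated kidney cells as well, against 859, 378 and 183 CPM in the other kidney cells of WT3 and 72.3, 14.2 and 16.6 CPM in those of WT2. These transcripts of another cell type differed with the gate, and their part in the other differences was not tested.

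Of the 265 genes called in spleen, 137 higher and 122 lower ones were fitted in kidney. Among the former, 120 were higher in gated kidney cells too (87.6%, beside 39.3% of all 8651 genes fitted in both organs), and among the latter 118 were lower. Both organs called 40 of the same genes, which is 15.1% of the spleen calls and 58.8% of the kidney calls. Of these, 8 were higher in both organs and 31 lower in both, while 1 was lower in spleen and higher in kidney. Only 8 of the 137 spleen rises were thus called higher in kidney. The median kidney log2 change was 0.32 for the spleen rises and -1.02 for the spleen falls, beside -0.18 for all genes. The kidney and spleen cells come from the same 2 mice and the gate is the same, so the directions are not independent of it.

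**Figure D5:**
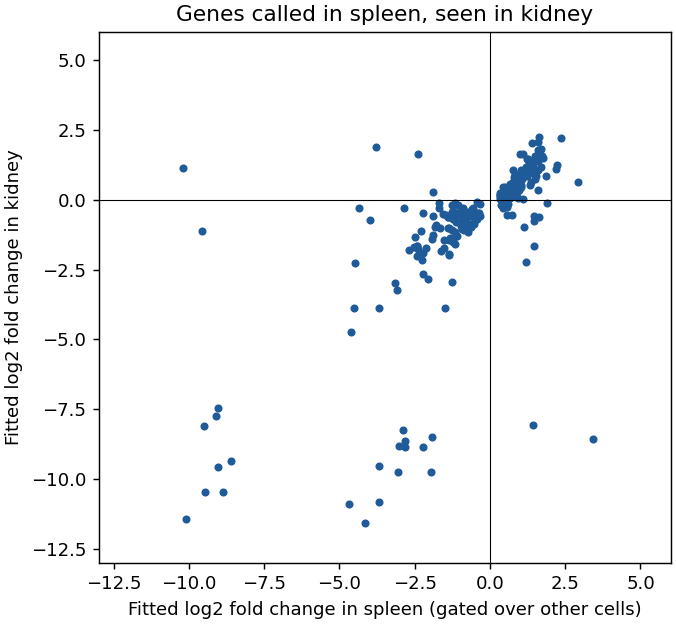
Fitted log2 fold changes of genes called in spleen, gated over other cells, in spleen (x axis) and kidney (y axis), 1 point per gene. Of 137 genes higher in spleen 120 lie above 0 in kidney, and the fitted size of a gene with no UMI in the gated cells is no bound.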

How the data were processed

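Single-cell 5′ gene expression and antibody tags were measured in CD4+ T cells of spleen and kidney. The deposited matrices hold whole UMI counts per gene and tag, not normalized, and the submitters' processing notes name Seurat 5.0.1, the mm10 genome and Cell Ranger 7.1.0. Other settings: not given in the sources used here. The deposited key gives each tag a mouse, organ and genotype, and tag numbers were joined to it by order. The 17523 entries of the second day repeat 2399 barcodes under several mice, could not be assigned to mice and were left out, and the separate receptor library was not analysed here. Cells needed at least 200 genes, under 10% mitochondrial UMIs and their block's tag in the lead. Median UMIs per cell of the other spleen cells lay between 3177.5 and 3640 per mouse.

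The 126 members, the gene lists and the comparisons were chosen with earlier results of these data known. UMI counts of members and other cells were summed per mouse where both had at least 10 cells, and fitted with edgeR 4.0.16 (quasi-likelihood, TMM, low-count filter, mouse as block, Benjamini-Hochberg over all genes fitted). The block is the animal, since both sums come from the same mouse. As a check, the WT2 minus WT3 differences of members and of other cells correlated at r = 0.30 over 3113 genes. CPM are shares of these sums. Clusters used 2000 variable genes, 30 principal components and the Leiden method of igraph 0.11.9 (15 neighbours, resolution 1). The fit was tested on simulated sums, where it recovered 55 of 100 changes of 2-fold and 97 of 100 of 4-fold, with 2 false calls. The simulation gave both mice the same base levels and every gene the same spread. It therefore does not show how the fit performs on 2 mice that differ. DESeq2 1.42.0 and other gates, filters and mice were alternatives. Named genes were up to 12 rises and 8 falls per comparison, called, the same way in both mice and at least 20 CPM in the higher class, without receptor segments and unnamed models, plus, of each gene list, up to 2 called genes in each direction with the smallest p and the gene with the highest level. Further list genes named in the text were picked after their values were seen. A lower bound on a fold takes 3 counts over the cells of both mice. Replicates are separate mice. Some items are not reported here. Promoters are from RefSeq (GRCm38.p6), which had no entry here for Cxcr5.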

Additional observations from a re-analysis of the deposited data

How the results depend on the processing

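For Gzmm+ cells against other spleen cells (265 genes), the count was 48 with DESeq2 (of 2309 genes with an adjusted p), 41 with no replicate block, 132 with all 5 mice, 68 against cells lacking only Gzmm, and 42 to 131 with 1 mouse left out of the 5 (112 without KO1, 131 without KO2, 89 without WT1, 92 without WT2, 42 without WT3). Against Gzmk and Eomes cells (353) it was 48 with DESeq2 and 59 with no replicate block, and against Havcr2-positive cells (644) 207 and 296. For the kidney gate (68) it was 14 and 11. Under a gate without Nsg2, no filter on low counts, or without cells holding CD8, B cell or myeloid UMIs, the first count stayed between 205 and 256. The median log2 change of all genes was -0.04 in the first comparison, -0.18 with all 5 mice and -0.38 with those but WT3, and fold changes there are read against that shift. Of the named genes, Slit3 reversed to -0.35 without WT3 and Tcf7 to -0.0136 without WT2, each in the fit of all mice, and the cause was not tested. Of the named genes of the first comparison, 10 of 17 stayed past the threshold with all 5 mice, 4 of 17 with those but WT3, 7 of 17 with those but WT2, and 6 of 20 with no replicate block. Of the kidney ones, 2 of 20 did with no replicate block and 3 of 20 with DESeq2.

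The KO minus WT difference in share lay between -2.99 and -0.740 points with 1 mouse left out, and the spleen minus kidney difference between 0.121 and 1.01. Both kept their sign under every gate, filter and thinning tried. Fits of Samd3-only against Cxcr5-only cells, of KO against WT within the Gzmm+ cells and its interaction, and of thinned or depth-limited cells were not run, because fewer than 2 mice, or no KO mouse, had 10 cells. The WT2 and WT3 fits could not leave out either mouse, which would leave no residual degrees of freedom. Low counts in 14 cells limit what WT2 can show.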
